A study of Mus musculus with 7 samples.

Results

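The growth hormone, STAT5 and IGF axis was read here through 10 genes, taken as every non-control probe whose gene name in the array files was Ghr, Prlr, Stat5a, Stat5b, Socs2, Cish, Bcl6, Igf1, Igfals or Igfbp3. These genes had 19 probes and 33 spots, out of 36492 gene names and 55681 probes on the arrays. All 19 probes were well above background on all 7 arrays, so that 10 of 10 genes passed the filter on dim probes and none had to be left out. The rule used names only, but these genes and the gene lists further below were chosen with earlier results of these data known. Their shares beside those of all genes are therefore descriptions.

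Pituitary growth hormone binds its receptor Ghr on hepatocytes, and the receptor-bound kinase Jak2 then phosphorylates STAT5a and STAT5b, which enter the nucleus and bind DNA. STAT5 drives the liver's output of IGF1 and of the acid-labile subunit Igfals, which hold IGF1 in the circulation together with the binding protein Igfbp3, and it also drives Socs2 and Cish, inhibitors that close a feedback loop on the receptor. Fasting is known to lower the liver's response to growth hormone, and the pattern of growth hormone pulses sets much of the difference between female and male mouse livers.

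The study compared livers of wild-type mice (WT) with livers of SHIVA mice, which carry a methionine-to-arginine change in the HMG box of the transcription factor Sox17 that was found by ENU mutagenesis. WT (n = 3) and SHIVA (n = 4) mice were all female C57BL/6 animals of 8 to 12 weeks, and all had been fasted for 24 h. The mutation is present in every cell of the animal and not in liver cells alone, the study describes the mutants as heterozygous, and no fed mice were on the arrays. Each liver was hybridized to its own single-colour Agilent array.

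Values are log2 signals after quantile normalization, and differences are log2 fold changes of SHIVA over WT from limma, with p-values adjusted by the Benjamini-Hochberg method over all 20002 genes tested. A gene was called when its adjusted p was under 0.05. The signal of a probe also depends on its sequence, so levels were compared between mice and never between probes. On each array 44.5% to 48.7% of the probes were well above background, 0 spots were saturated, and arrays correlated with r between 0.972 and 0.993 over the genes tested. WT replicate 3 was nearer to SHIVA replicates 1, 3 and 4 (r of 0.988, 0.988 and 0.989) than to WT replicates 1 and 2 (0.982 and 0.984), and 423 genes were called without it against 75 with it. The number of arrays limits the precision. All arrays lay on 1 slide, WT in 1 row and SHIVA in the other, so that place on the slide and genotype cannot be told apart. All 8 hepatocyte markers were well above background on all arrays. Prl, Myh4 and Ckm, markers of pituitary and muscle, were so on none. Gh, the other gene of that list, was so on 1 WT and 4 SHIVA arrays. Its values were low, from 3.05 to 3.95, and overlapped (log2 fold change 0.42, limma adjusted p = 0.367). Sox17 itself had a log2 fold change of 0.69 (SE, its standard error, 0.25, limma adjusted p = 0.279) with overlapping values, and an expression level does not test a missense mutation. Its signal was low, from 3.41 to 4.76, and well above background on 2 of 3 WT arrays. The second Sox17 probe gave 0.31. The brighter probe gave 0.24 with the mean signal without background correction and 0.094 with normexp background correction. Bulk tissue cannot tell fewer cells of a type apart from less RNA per cell.

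STAT5 dimers bind the palindrome TTCNNNGAA, named the GAS motif, which reads the same on both strands. It was searched in the RefSeq promoters (GRCm38.p6) from 250 bases before to 50 bases after each annotated start, which the reference held for 9 of the 10 genes, all but Socs2. Of their 17 promoters, 6 held the motif, and these belonged to 4 genes, Prlr, Cish, Bcl6 and Igfals. Over all promoters the motif was in 8.30% of 32851, or at 9.55% of 27025 genes. The 9 genes had more promoters per gene than all genes did, so the shares by gene do not rest on equal lengths of sequence. The sites below are shown because they mark the feedback inhibitor that differed most between the genotypes (Cish), the promoter with the most motifs (Bcl6), the motif of the IGF complex nearest to a start (Igfals) and the receptor promoter that has one (Prlr), each with its flanking bases, 5′ to 3′ on the gene's strand, with the motif in capitals.
Cish, plus strand of chr9:107296654-107296683: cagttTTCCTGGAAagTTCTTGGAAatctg
Bcl6, minus strand of chr16:23981433-23981461: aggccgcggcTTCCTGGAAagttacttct
Bcl6, minus strand of chr16:23981387-23981415: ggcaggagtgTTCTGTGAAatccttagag
Bcl6, minus strand of chr16:23981353-23981381: atcgactacgTTCCGGGAAtgagagggct
Igfals, plus strand of chr17:24878163-24878191: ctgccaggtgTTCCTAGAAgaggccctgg
Prlr, plus strand of chr15:10223786-10223814: gcaaaatgagTTCTAGGAAtaagggatat

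The Cish promoter held 2 motifs side by side at its annotated start. The Bcl6 sites come from 1 of 2 promoters of that gene, and the other held 1 motif. The Igfals site lies in 1 of 3 promoters, of which another held 1 motif as well. The Prlr site also lies in 1 of 3 promoters, and the other Prlr promoters held no motif. No promoter of Ghr, Stat5a, Stat5b, Igf1 or Igfbp3 held these letters in the window searched, which says nothing about STAT5 binding elsewhere. A motif is a match of letters, and no binding was measured in these livers.

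Across the axis, 0 of 10 genes were called, where 0.375% of all genes tested were (75 genes, of which 0.185% were higher and 0.19% lower in SHIVA livers). At an unadjusted p under 0.05, limma gave 4 of the 10 genes, Stat5a, Stat5b, Cish and Igfbp3, against 13.3% of all genes, and the methods' t-test gave 3 of them and none after adjustment. For 3 of 10 genes, Stat5b, Cish and Igfbp3, every SHIVA liver was above every WT liver, a state that 6.14% of all genes showed. Fewer mice leave more genes apart: without WT replicate 2, 5 of the 10 genes had no overlap, Igf1 and Ghr being added, in a setting where 17.5% of all genes had none against 12.2% with all mice. The reverse, every SHIVA liver below every WT liver, was found for 0 of the 10 and for 6.02% of all genes. The fold change was above 0 for 7 of the 10 genes, with a median of 0.19, against -0.01 over all genes tested. WT replicate 1 had the lowest value of all 7 livers for 4 of the 10 genes, Prlr, Stat5b, Cish and Igfbp3. Without it the fold changes on the log2 scale were 0.42 for Stat5b, 0.72 for Cish and 0.78 for Igfbp3, and these 3 genes had no overlap in that setting, as 21.3% of all genes did.

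**Figure D1:**
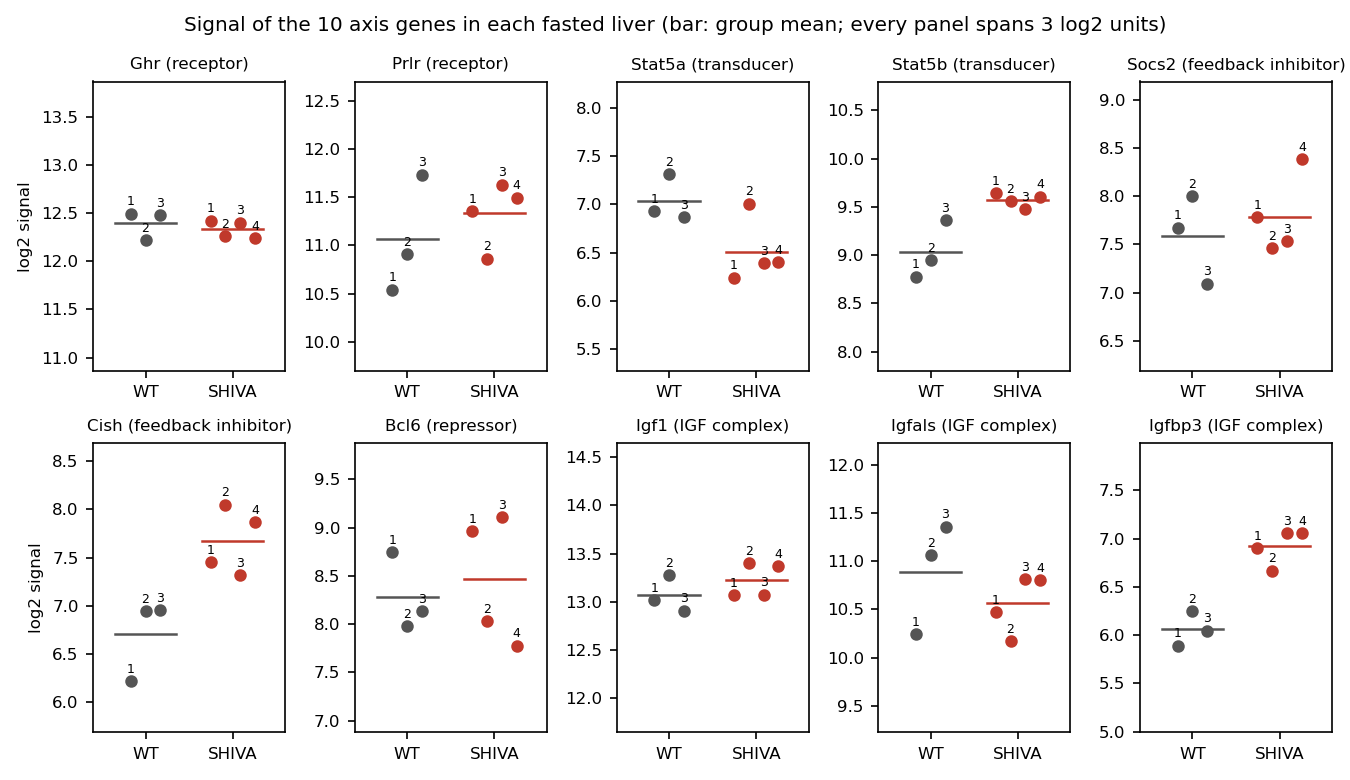
Log2 signal (vertical axis, each panel spanning 3 log2 units) of the 10 axis genes in each of 3 WT (grey) and 4 SHIVA (red) fasted livers, with mouse numbers beside the points and a bar at each group mean. Points of WT and SHIVA livers are apart only for Stat5b, Cish and Igfbp3, and Prlr, Igfals and Bcl6 show wide scatter within a genotype.

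Neither receptor gene was called. Ghr, the growth hormone receptor gene, measured 12.49, 12.22 and 12.48 in WT livers and 12.42, 12.26, 12.40 and 12.24 in SHIVA livers with its brighter probe (chromosome 15 from 3277543 to 3277602 in mm9, the build of the array files). All 7 livers lay close together and the ranges overlapped. SHIVA livers differed from WT livers by a log2 fold change of -0.07, with a 95% interval from -0.39 to 0.26 (limma adjusted p = 0.886).

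Mouse Ghr is known to give rise to a full-length receptor and to a shorter secreted binding protein, and the files assign the 2 Ghr probes to different transcript variants. The brighter probe stands for the gene here but is assigned to the second variant, so its value need not be that of the full-length receptor. The other probe (chromosome 15 from 3268107 to 3268166), which is assigned to the first variant and lies nearer to the 3′ end of the gene, measured 11.65, 11.51 and 12.39 in WT and 12.26, 12.48, 12.16 and 12.22 in SHIVA livers. Here WT replicates 1 and 2 were below all SHIVA livers, while WT replicate 3 was level with them. This probe gave a log2 fold change of 0.43 (SE 0.22, limma adjusted p = 0.471 over all probes), so that the sign of the Ghr difference depended on the probe.

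Prlr, the prolactin receptor, which also signals through STAT5, measured 10.54, 10.91 and 11.73 in WT and 11.36, 10.86, 11.63 and 11.49 in SHIVA livers. WT replicate 3 was the highest of all mice and WT replicate 1 the lowest, so the WT livers spanned the SHIVA livers entirely. Prlr differed by 0.27 on the log2 scale, with a 95% interval from -0.41 to 0.95 (limma adjusted p = 0.750), and its second probe gave 0.21. The difference rested on single WT mice, being 0.013 without WT replicate 1 and 0.61 without WT replicate 3.

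The STAT5 transducers are encoded by neighbouring genes on chromosome 11, and their differences had opposite signs. Stat5b, the main STAT5 of the liver, measured 8.78, 8.95 and 9.36 in WT and 9.64, 9.56, 9.48 and 9.61 in SHIVA livers (probe at 100642187 to 100642246). The SHIVA livers lay within a narrow band above all WT livers, with an SD of 0.071 (n = 4) against 0.302 (n = 3) in WT livers. Stat5b differed by 0.54 on the log2 scale, or 1.46-fold, with a 95% interval from 0.16 to 0.93, and was not called (limma adjusted p = 0.233).

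The second Stat5b probe, read at 8.21, 8.35 and 8.45 in WT and 8.65, 8.97, 8.55 and 8.69 in SHIVA livers, also kept the genotypes apart. Its log2 fold change was 0.38 (SE 0.16, limma adjusted p = 0.352 over all probes). Probes of 1 gene in the same livers are not replicates.

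Stat5a measured 6.93, 7.31 and 6.87 in WT and 6.24, 7.01, 6.39 and 6.40 in SHIVA livers (probe at 100746373 to 100746432). SHIVA replicates 1, 3 and 4 were below all WT livers, and SHIVA replicate 2 lay among them. Stat5a differed by -0.53 on the log2 scale, with a 95% interval from -1.02 to -0.04, and was not called (limma adjusted p = 0.341). Without SHIVA replicate 2 the values did not overlap, which then held for 16.7% of all genes. Without WT replicate 2 the Stat5a difference was -0.39 (limma adjusted p = 0.709).

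**Figure D2:**
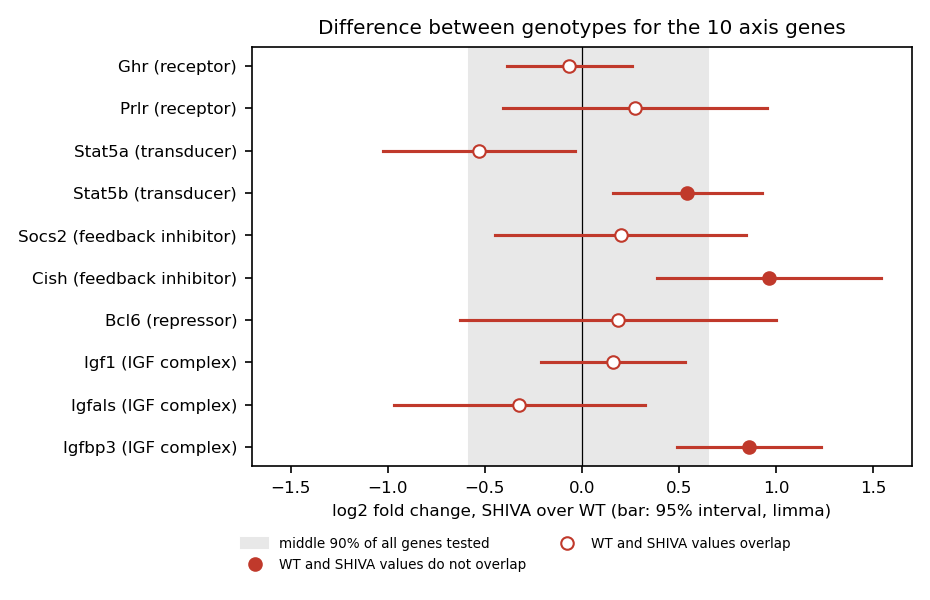
Log2 fold change of SHIVA over WT (horizontal axis) for the 10 axis genes ordered by role, with limma's 95% interval as a bar, against the middle 90% of all genes tested (grey, from -0.58 to 0.65). Filled points are genes whose WT and SHIVA values do not overlap. Cish and Igfbp3 lie outside the grey band, and the intervals of Stat5a, Stat5b, Cish and Igfbp3 do not reach 0.

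Among the feedback targets of STAT5, Cish and Socs2 differed in how the livers were arranged. Cish, which encodes an SH2 protein that blocks STAT5 docking at the receptor, measured 6.22, 6.95 and 6.95 in WT and 7.45, 8.05, 7.31 and 7.87 in SHIVA livers (chromosome 9 from 107204196 to 107204255). Every SHIVA liver was above every WT liver, and WT replicate 1 was the lowest. Its log2 fold change of 0.96, a ratio of 1.95, had a 95% interval from 0.39 to 1.54 and was not called (limma adjusted p = 0.183). With normexp background correction it was 0.63.

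Socs2, the suppressor whose loss in mice gives excess growth, measured 7.67, 8.00 and 7.09 in WT and 7.78, 7.46, 7.53 and 8.38 in SHIVA livers (chromosome 10 from 94875066 to 94875125, 10 spots per array). WT replicate 3 was the lowest and SHIVA replicate 4 the highest, with the other livers mixed. Between the genotypes the log2 fold change was 0.20 with a 95% interval from -0.44 to 0.85 (limma adjusted p = 0.812). The other Socs2 probes gave 0.23 and 0.22 and the same highest mouse.

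Bcl6, a repressor that occupies many STAT5 sites and is higher in male than in female liver, measured 8.74, 7.98 and 8.13 in WT and 8.97, 8.03, 9.11 and 7.78 in SHIVA livers (chromosome 16 from 23965160 to 23965219). The SHIVA livers split into replicates 1 and 3 near 9 and replicates 2 and 4 near 8, and the WT values fell between their extremes. For Bcl6 the log2 fold change of 0.19 had a 95% interval from -0.63 to 1.00 (limma adjusted p = 0.867). Among the 10 genes, Bcl6 had the largest SD between SHIVA livers, 0.663 (n = 4).

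Of the circulating IGF complex, Igfbp3 stood apart from Igf1 and Igfals. Igfbp3, the binding protein, measured 5.89, 6.25 and 6.05 in WT and 6.90, 6.67, 7.06 and 7.06 in SHIVA livers (chromosome 11 from 7106594 to 7106653). The lowest SHIVA liver was above the highest WT liver, and both genotypes were narrow, with SDs of 0.178 (n = 3) and 0.185 (n = 4). Its log2 fold change of 0.86, a ratio of 1.81, had a 95% interval from 0.49 to 1.23 and ranked 142 of the 20002 genes by its p. It missed the threshold (limma adjusted p = 0.0830) and passed it in 1 of 17 other settings, the one that weighted arrays by their quality (limma adjusted p = 0.0308). The size of the difference moved with the background correction and was 0.49 with normexp, 0.59 with the uncorrected mean signal and 0.60 in the authors' table.

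Igf1 measured 13.02, 13.27 and 12.91 in WT and 13.07, 13.40, 13.07 and 13.37 in SHIVA livers (chromosome 10 from 87393581 to 87393640). The ranges overlapped and the SD within each genotype was larger than the difference. For Igf1 the log2 fold change of 0.16 had a 95% interval from -0.21 to 0.53 (limma adjusted p = 0.733), and the other 4 Igf1 probes gave 0.18, -0.09, -0.14 and 0.02.

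Igfals, the acid-labile subunit that only the liver makes in quantity, measured 10.24, 11.06 and 11.36 in WT and 10.47, 10.17, 10.81 and 10.80 in SHIVA livers (chromosome 17 from 25018251 to 25018310). WT replicates 2 and 3 were above all SHIVA livers, while WT replicate 1 was among the lowest. For Igfals the log2 fold change of -0.32 had a 95% interval from -0.97 to 0.32 (limma adjusted p = 0.685). Without WT replicate 1 the difference was -0.64 and the values did not overlap, as for 21.3% of all genes in that setting, and without WT replicate 3 it was -0.086.

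**Figure D3:**
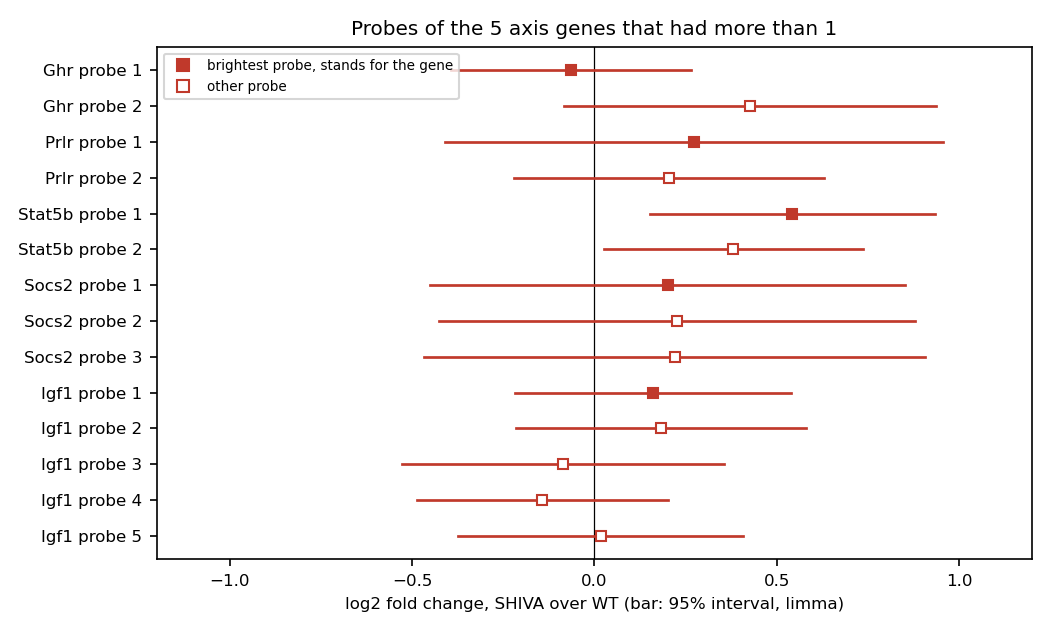
Log2 fold change of SHIVA over WT (horizontal axis) for each probe of the 5 axis genes with more than 1 probe, with limma's 95% interval over all probes as a bar, and the probe that stood for the gene filled. The intervals of both Stat5b probes lie above 0. The points of the Ghr probes lie on either side of 0, and the Ghr intervals, like all others, reach across it.

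In the liver, Igfbp3 is known to come mainly from non-parenchymal cells, so markers of these cells stand beside its value. The level of a list is given as the mean log2 signal of its markers, so that each marker counts alike, and beside it as the sum of the unlogged signals, which the brightest probes dominate. Of 10 markers of sinusoidal endothelial cells, 6 were higher in SHIVA livers and 0 were called, with mean log2 signals from 9.15 to 9.33 in WT and from 9.25 to 9.37 in SHIVA livers and sums from 17572 to 21004 and from 15479 to 17854. The bright Kdr and Clec4g were lower in SHIVA livers, by log2 fold changes of -0.29 and -0.26, while Lyve1 had 0.79 (limma adjusted p = 0.289). Of 8 stellate cell and fibroblast markers, 4 were higher and 0 were called, with mean log2 signals from 7.55 to 8.19 in WT and from 7.95 to 8.22 in SHIVA livers and sums from 16659 to 18226 and from 11691 to 18369. Among the higher ones, Col3a1 had a log2 fold change of 0.99 and Colec11, without overlap, 0.28. Among the lower ones, Dcn had -0.40 and Des, without overlap, -0.24.

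Of 8 Kupffer cell and macrophage markers, all 8 were higher and 0 were called, with mean log2 signals from 9.58 to 10.77 in WT and from 10.12 to 11.12 in SHIVA livers and sums from 18214 to 39000 and from 25649 to 56811. The markers of these 3 lists were well above background on all arrays. Of 6 tested markers of red blood cells or neutrophils, all 6 were higher and 0 were called, with a median log2 fold change of 1.03 and mean log2 signals from 7.83 to 8.79 in WT and from 7.86 to 10.18 in SHIVA livers. Ngp, with 2.15, passed the filter on dim probes through 3 SHIVA arrays and 0 WT arrays. It therefore had to count as higher, and its value is a description. Of 4 tested cholangiocyte markers 1 was higher and 0 were called, with a median of -0.64 and mean log2 signals from 4.73 to 5.75 in WT and from 4.22 to 5.47 in SHIVA livers. The mean levels of the genotypes overlapped for each of these lists. Their part in the Igfbp3 difference was not tested.

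Genes around the axis were read in 5 lists, to be set against all genes tested, of which 0.375% were called, and 6.14% were without overlap and higher and 6.02% without overlap and lower in SHIVA livers. In the list for signalling from the growth hormone receptor to STATs, 25 of 26 genes were tested and 0 were called in either direction. Of the 25, 20 were higher in SHIVA livers, with a median log2 fold change of 0.17, against -0.01 over all genes. For 3 genes every SHIVA liver was above every WT liver, and for 0 the reverse held.

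These were Irs1, Jak2 and Jak1. Irs1, a docking protein of the insulin and IGF1 receptors, measured 7.52, 7.97 and 8.32 in WT and 8.87, 8.81, 8.56 and 8.55 in SHIVA livers, with the SHIVA livers close together above all WT livers (log2 fold change 0.76, SE 0.21, limma adjusted p = 0.193). With the mean of all its probes the Irs1 difference was 0.44 (limma adjusted p = 0.454). Jak2, the kinase of the growth hormone receptor, measured 7.89, 7.59 and 7.90 in WT and 8.11, 8.49, 8.03 and 8.25 in SHIVA livers. Its log2 fold change was 0.42 (SE 0.17, limma adjusted p = 0.322), and the highest WT and the lowest SHIVA liver lay close together. Jak1, a kinase of cytokine receptors, had a log2 fold change of 0.34 (limma adjusted p = 0.359).

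Of 19 other IGF ligands, receptors and binding proteins, only 9 were bright enough to be tested, 0 were called, 7 were higher, and the median log2 fold change was 0.31. Igf1r, with 0.65 the largest of them, passed the filter on dim probes through the 4 SHIVA arrays and 0 WT arrays. It therefore had to count as higher, and its value is a description. Igfbp6, a binding protein with a preference for IGF2, was the one gene without overlap. It measured 7.96, 7.63 and 7.31 in WT and 7.04, 7.08, 7.17 and 7.14 in SHIVA livers, lower in all SHIVA livers than in any WT liver (log2 fold change -0.53, SE 0.17, limma adjusted p = 0.250), in the direction opposite to Igfbp3.

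Igfbp1, the fasting-induced binding protein, measured 13.50, 14.28 and 13.66 in WT and 13.67, 14.10, 13.33 and 15.32 in SHIVA livers. SHIVA replicate 4 was the highest and the other livers were mixed (log2 fold change 0.29, SE 0.44, limma adjusted p = 0.823). Igfbp2 measured 13.99, 14.88 and 14.81 in WT and 15.23, 14.06, 15.24 and 15.07 in SHIVA livers. SHIVA replicates 1, 3 and 4 were above all WT livers and replicate 2 was near the lowest (log2 fold change 0.34, SE 0.34, limma adjusted p = 0.725).

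In the list of liver factors and products that respond to growth hormone, all 23 genes were tested and 0 were called, with 10 higher and 13 lower and a median log2 fold change of -0.07. Values did not overlap for 2 genes that were higher and 1 that was lower. The lower one, Nr1i3, the nuclear receptor CAR, measured 13.04, 13.11 and 13.06 in WT and 11.89, 12.15, 11.98 and 12.39 in SHIVA livers. The WT livers were nearly level and all SHIVA livers were well below them (log2 fold change -0.97, SE 0.16, limma adjusted p = 0.0547), and the gene was called in 6 of 17 other settings, among them without WT replicate 3 (limma adjusted p = 0.0466).

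Cd36, a fatty acid transporter that is higher in female than in male liver, measured 7.96, 7.90 and 8.12 in WT and 8.59, 9.14, 8.54 and 8.70 in SHIVA livers. All SHIVA livers were above all WT livers (log2 fold change 0.75, SE 0.18, limma adjusted p = 0.147). Ces2a, a carboxylesterase, had a log2 fold change of 0.32 (limma adjusted p = 0.370). Onecut1 and Cux2, transcription factors of female liver that growth hormone regulates, overlapped between the genotypes, with log2 fold changes of -0.52 (limma adjusted p = 0.575) and 0.30 (limma adjusted p = 0.511).

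Fgf21, a fasting hormone that dampens STAT5 signalling in liver, measured 7.30, 7.75 and 4.57 in WT and 4.36, 5.13, 3.76 and 4.47 in SHIVA livers. WT replicates 1 and 2 were far above the other 5 livers, and WT replicate 3 lay among the SHIVA livers. Fgf21 differed by -2.11 on the log2 scale (SE 0.70, limma adjusted p = 0.250). Without WT replicate 3 it was -3.09 and was called (limma adjusted p = 0.0141), in a setting where 423 genes were called against 75 with all mice.

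Sex-biased liver genes, which depend on the growth hormone pattern, were read in both directions although all mice were female. Of 23 tested genes that are higher in female liver, 0 rose and 1 fell at the threshold, 13 were higher and 10 lower, and the median log2 fold change was 0.18. Values did not overlap for 4 genes that were higher and 4 that were lower. The lower ones were Slc22a27, Sult3a1, Acot3 and Cyp2a22. The last 3 had log2 fold changes of -1.55, -1.37 and -1.16 and were not called (limma adjusted p = 0.111, 0.149 and 0.183). The gene that fell was Slc22a27, an organic anion transporter. It measured 7.14, 6.89 and 6.61 in WT and 5.82, 5.82, 5.94 and 5.89 in SHIVA livers, where the SHIVA livers were nearly level (log2 fold change -1.01, SE 0.16, limma adjusted p = 0.0455). It was called in 7 of 17 other settings. The call was lost with any single mouse left out other than WT replicate 3, with limma adjusted p-values from 0.0787 (without SHIVA replicate 4) to 0.196 (without WT replicate 2).

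The female-biased genes with the largest differences were higher in SHIVA livers and were not called. A1bg measured 8.81, 8.70 and 10.41 in WT and 12.97, 10.93, 13.09 and 11.39 in SHIVA livers (log2 difference 2.79, SE 0.62, limma adjusted p = 0.132). Hao2, a peroxisomal hydroxy acid oxidase, measured 4.77, 2.59 and 5.30 in WT, well above background on 2 of 3 arrays, and 6.41, 6.85, 6.81 and 6.13 in SHIVA livers (log2 difference 2.33, SE 0.57, limma adjusted p = 0.150). The size of the Hao2 difference rested on WT replicate 2, the array on which it was not well above background, and on the background correction: it was 1.51 without that mouse, 0.87 with normexp, 1.23 and called with the uncorrected mean signal (limma adjusted p = 0.0423), and 1.23 and called with the authors' table (limma adjusted p = 0.0469). Atp6v0d2, a subunit of the proton pump of lysosomes, measured 6.02, 6.12 and 8.22 in WT and 8.92, 8.83, 9.33 and 8.36 in SHIVA livers (log2 difference 2.07, SE 0.51, limma adjusted p = 0.154). In all of them WT replicate 3 was the WT liver nearest to the SHIVA livers, and without it they were called, with limma adjusted p-values of 0.0435, 0.0462 and 0.00926 in the order above. In that setting 423 of 19784 genes were called, against 75 of 20002 with all mice. Without WT replicate 1 these 3 genes were not called, with limma adjusted p-values of 0.407, 0.345 and 0.457 in the same order.

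Of 26 genes that are higher in male liver, 23 were matched by name and 19 were tested. The median log2 fold change was -0.39, with 13 lower and 6 higher, and values did not overlap for 8 lower genes and 1 higher gene, against the 6.02% and 6.14% of all genes given above. The higher one was C8b, with a log2 fold change of 0.98 (limma adjusted p = 0.0547). At the threshold 2 fell and 0 rose, Elovl3, which passed the filter on dim probes through the WT arrays alone, and Mup20. Elovl3, a fatty acid elongase, measured 7.14, 7.54 and 6.21 in WT livers and was not well above background in any SHIVA liver, which made it at least 12.6-fold lower there by the background limit of the arrays (limma adjusted p = 0.000608). Its p sets the WT livers against values at the background, and a gene that enters through 1 genotype only had to differ, so its call is a description. With any WT mouse left out it was bright on too few arrays to be tested.

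Mup20, the major urinary protein darcin, measured 16.42, 16.58 and 16.23 in WT and 15.26, 14.75, 15.38 and 15.12 in SHIVA livers. All SHIVA livers were below all WT livers (log2 fold change -1.28, SE 0.19, limma adjusted p = 0.0369), and the gene was called in 8 of 17 other settings. The call was lost without WT replicate 1, WT replicate 2, SHIVA replicate 1, SHIVA replicate 3 or SHIVA replicate 4, with limma adjusted p-values from 0.0659 to 0.182. It was lost as well with the mean of all its probes, which gave -0.84 (limma adjusted p = 0.199). Major urinary protein genes are near-identical copies, so a probe may read several of them. Fitm1, a lipid droplet protein, measured 7.31, 7.18 and 7.84 in WT and 6.80, 6.51, 5.50 and 5.57 in SHIVA livers, again without overlap (log2 fold change -1.35, SE 0.35, limma adjusted p = 0.179).

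**Figure D4:**
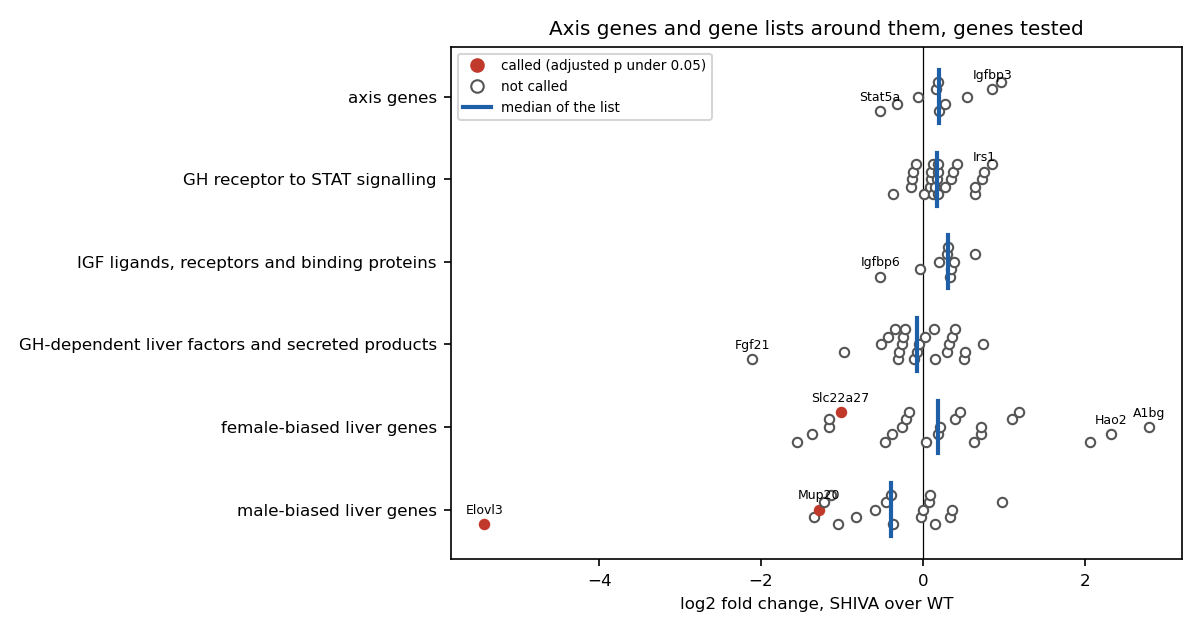
Log2 fold change of SHIVA over WT (horizontal axis) for the axis genes and for the tested genes of the 5 lists around them, 1 point per gene, offset vertically only for legibility, with called genes filled and the median of each list as a blue bar. The 3 called genes are Elovl3 and Mup20 among male-biased and Slc22a27 among female-biased genes, all lower in SHIVA livers, and no axis gene is called.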

How the data were processed

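Livers of 3 WT and 4 SHIVA mice were measured on 1 array each, without pooling. The authors deposited the scanner intensity of every spot (Agilent Feature Extraction 10.5.1.1, per the submitters' processing notes, with no normalization between arrays) and a table of log2 values, which the methods describe as quantile normalized. On every array that table had the rank order of the mean signal without background correction. Probe positions are those of mm9.

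From the processed intensities, control spots and 120 to 163 spots per array marked as uneven or deviant were left out. The other spots of the 7 arrays were log2 transformed and then quantile normalized with limma 3.58.1 in R 4.3.3. Spots of a probe were averaged, and genes with several probes were represented by their brightest one on average. The 20002 genes well above background on at least 3 arrays were tested with lmFit and eBayes, two-sided. The fit was tested on simulated data.

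The axis genes and gene lists were chosen with earlier results of these data known. Names outside the axis were given to genes of the lists that were called, to at most 3 genes per list with the largest difference among those without overlap, to Jak2, Igfbp1, Igfbp2, Fgf21, Onecut1 and Cux2, and to Sox17. The other lower female-biased genes and the higher male-biased gene without overlap were named as well. List names that could not be matched to a gene name on the arrays, Cyp3a41a, Mup1, Mup7 and Selenbp2, were not analysed here. Alternatives were 75th percentile scaling, the mean signal without background correction, normexp with an offset of 50, the authors' table, other filters on dim probes, the mean of all probes, single probes, a replicate block, array weights, single mice left out, and the methods' t-test.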

Additional observations from a re-analysis of the deposited data

Results flagged for a closer look

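A single SHIVA mouse stood far from the other 3, by Dixon's criterion on 4 values, for 1 of the 30 named genes, and about 1.5 such genes would be found by chance. In SHIVA replicate 2 the log2 signal of Igfbp2 was 14.06, while the lowest of the other SHIVA mice had 15.07 and the highest 15.24. The criterion was not applied to the WT mice, of which there were 3.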

How the results depend on the processing

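With 17 other settings the fold changes of Stat5b, Cish and Igfbp3 stayed above 0 and that of Stat5a below 0. The adjusted p ran from 0.0621 to 0.519 for Stat5b, from 0.104 to 0.453 for Cish and from 0.0308 to 0.263 for Igfbp3. For Stat5a it ran from 0.0581 to 0.709. Axis genes called were 0 in every setting but array weights, where there was 1, Igfbp3. Axis genes without overlap numbered 3 to 5 with single mice left out: Igfals was added without WT replicate 1, Igf1 and Ghr without WT replicate 2 and Stat5a without SHIVA replicate 2. With a spacer of 4 bases the motif was in the promoters of 0 axis genes.

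The count of all genes called was 142 with the mean signal, 129 with the authors' table, 13 without a filter (30.8% higher in SHIVA livers, against 49.3%), 480 with array weights and 0 with the methods' t-test after adjustment. With normexp it was 71, of which 38.0% were higher. It ran from 3 without WT replicate 1 to 423 without WT replicate 3. List genes called, 3 as reported, were 8 with the mean signal, 6 with normexp, 7 with the authors' table, 1 without a filter, 11 with array weights, 0 with the t-test, and 0 to 12 with single mice left out.

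Replicate numbers are shared by the genotypes, but the deviations of same-numbered mice correlated at -0.05, 0.01 and 0.24, so the numbers were not taken as pairs. With the replicate block 32 genes and 1 list gene were called, and 0 axis genes.

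Some small differences turned. Ghr had 0.18 with the mean of all probes, 0.063 with array weights and 0.43 with its second probe, and Igf1 had -0.025 with array weights and -0.087 and -0.14 with single probes. With single mice left out Socs2 ran from -0.047 (without WT replicate 3) to 0.41, Bcl6 from -0.026 (without SHIVA replicate 3) to 0.42, and Igfbp1 from -0.11 (without SHIVA replicate 4) to 0.55. Igfbp1 had -0.19 with array weights and -0.11 with the replicate block. The causes were not tested. A missed threshold does not show that values did not differ.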
